A study of Mus musculus with 8 samples.

Results

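Cholesterol synthesis, uptake and efflux were followed through 33 genes of the 36163 gene names on the array. They were chosen by gene name, from a list of 34 names in which Sc4mol, the name the array uses, is the older name of Msmo1. They fall into 7 genes of the first steps from acetyl-CoA units to squalene, 10 genes from squalene to cholesterol, 6 that control the transcription factor SREBP2, 5 of uptake, transport and storage, and 5 of the LXR receptors and efflux. The samples were whole-lung total RNA of C57BL/6 mice, 4 wild-type and 4 with a lung-specific knockout of Ggps1 (labelled GGPPS1). Both groups had received lipopolysaccharide (LPS), the bacterial outer-membrane component that injures the lung, 12 h earlier, and mice without LPS were not analysed here. The promoter or Cre line behind the knockout, and the age and sex of the mice, are not given in the sources used here. The series title ties the comparison to LPS-induced lung injury and the NLRP3 inflammasome.

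Cells build cholesterol from acetyl-CoA by way of mevalonate and farnesyl diphosphate. Farnesyl diphosphate is a branch point: squalene synthase sends it towards sterols, and Ggps1, geranylgeranyl diphosphate synthase, extends it into the lipid that anchors many small GTPases in membranes. When membrane sterol falls, SCAP carries SREBP2 to the Golgi, where a pair of proteases free its transcription factor domain, and the genes of synthesis and uptake are induced together; INSIG proteins hold SCAP back when sterol is ample. When sterol is in excess, oxysterols activate the LXR receptors, which induce the exporters ABCA1 and ABCG1. In the lung, alveolar macrophages and alveolar type 2 cells take up or make much surfactant lipid.

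Of the promoters, 3 are printed to show the letters through which these arms are known to be controlled: Hmgcs1, a classical SREBP2 target, Srebf2, which encodes SREBP2, and Abca1, a classical LXR target. Each run is the 250 bases before the RefSeq start, 5′ to 3′ along the gene, and capitals mark matches to TCACNCCAC (a sterol element core), to CCAAT (bound by NF-Y, a partner of SREBP2) or to GGTTA, any 5 bases and GGTCA (the LXR repeat in the form known from Abca1, so its match there was built into the search). Both strands were searched, so ATTGG is CCAAT on the other strand, and the LXR repeat of Abca1 also lies on the other strand. The 3 windows lie at GRCm38.p6 chr13:119690101-119690350, plus strand, at GRCm38.p6 chr15:82147019-82147268, plus strand, and at GRCm38.p6 chr4:53159896-53160145, minus strand.
Hmgcs1: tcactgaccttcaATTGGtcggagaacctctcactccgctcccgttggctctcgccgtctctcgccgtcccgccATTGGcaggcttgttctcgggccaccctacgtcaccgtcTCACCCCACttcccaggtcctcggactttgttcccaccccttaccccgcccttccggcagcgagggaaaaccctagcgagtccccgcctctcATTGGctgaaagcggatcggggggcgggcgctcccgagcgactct
Srebf2: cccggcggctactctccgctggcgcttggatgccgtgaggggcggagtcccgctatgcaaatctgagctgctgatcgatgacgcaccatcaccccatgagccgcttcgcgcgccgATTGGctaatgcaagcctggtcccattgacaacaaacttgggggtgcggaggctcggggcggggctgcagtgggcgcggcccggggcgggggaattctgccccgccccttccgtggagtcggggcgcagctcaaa
Abca1: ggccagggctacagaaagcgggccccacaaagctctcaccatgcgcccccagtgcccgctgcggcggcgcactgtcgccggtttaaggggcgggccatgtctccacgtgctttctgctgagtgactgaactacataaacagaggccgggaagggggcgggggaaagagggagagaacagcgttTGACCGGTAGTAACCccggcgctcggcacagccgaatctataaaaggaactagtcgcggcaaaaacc

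A RefSeq window from 250 bases before to 50 after the start was found for 28 of the 33 genes; the others are Abcg1, Fdft1, Npc1, Sqle and Stard4. TCACNCCAC was present in Hmgcs1 alone among these 28, at position -137, and in 1.24% of all 32851 windows. CCAAT was present in 14 of the 15 synthesis genes with a window, against 41.1% of 27025 genes with a window. The exception was Acat2. Of the LXR and efflux genes with a window (Nr1h2, Nr1h3, Abca1 and Ch25h), 0 of 4 held CCAAT. The LXR repeat was present in 0.0487% of all windows and, among the 28, in Abca1. A match describes letters, not a bound site, and an exact search passes over near matches. The Srebf2 run holds TCACCCCAT, 1 letter from TCACNCCAC, which is not marked. A missing match therefore does not mean that a gene lacks a sterol element. For the 5 genes of the first steps that hold CCAAT, 1 match each is printed, since these show how short the shared part is: the nearest to the start that leaves 12 bases on both sides within the bases before it. Mvk and Idi1 hold a further match at -14 and Hmgcs1 one at position 11 after the start, which are closer and not printed; each run reads along the strand that carries CCAAT, with CCAAT in capitals.
Hmgcs1: atccgctttcagCCAATgagaggcgggga
Mvk: ttaatgtttgacCCAATctgtaaaggagc
Pmvk: aactcaggttggCCAATtcacagcatcta
Mvd: ccggccagcgggCCAATcatatggcagcg
Idi1: tgcccgggctcgCCAATcagctggaggca
These lie at GRCm38.p6 chr13:119690294-119690322 for Hmgcs1, GRCm38.p6 chr5:114444207-114444235 for Mvk, GRCm38.p6 chr3:89454393-89454421 for Pmvk, GRCm38.p6 chr8:122443433-122443461 for Mvd, GRCm38.p6 chr13:8885549-8885577 for Idi1. The printed matches began at positions -136 (Pmvk), -50 (Mvk), -45 (Hmgcs1 and Idi1) and -27 (Mvd), counted along the gene from its start.

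All 8 arrays lay on 1 slide, wild-type samples in row 1 and knockout samples in row 2, so slide row and genotype cannot be told apart. The replicate number was also the slide column. Between 58.0% and 65.2% of spots were well above background. Feature Extraction had put a surrogate value in place of the signal for every usable spot of some probes. These were 15.1% to 19.97% of probes in wild-type and 20.7% to 24.4% in knockout samples. Across 24467 tested genes, limma called 8 that rose and 7 that fell at a Benjamini-Hochberg adjusted p of 0.05. Levels are in log2 units above the array's own 75th percentile, so 0 stands for that percentile, and differences are knockout minus wild type on the same scale. The mRNA of the targeted gene did not mark the genotype: the brightest Ggps1 probe read 1.26, 1.34, 1.26 and 1.40 in the 4 wild-type lungs and 1.32, 1.24, 1.22 and 1.24 in the 4 knockout lungs, a difference of -0.06 ± 0.068 (SE; limma, adjusted p = 0.613). The dimmer Ggps1 probes differed by -0.12 ± 0.15 and 0.19 ± 0.089 (SE), with overlapping groups. The labels do not say where the gene was deleted, so these probes may lie outside the deleted part. In whole tissue, fewer cells of a type and less RNA per cell cannot be told apart. Samples are listed in replicate order 1 to 4; nothing says that each came from its own mouse, so p-values measure the spread between these samples. Monocyte and interstitial macrophage markers were lower in 12 of 12 cases, with list means of 1.46 to 2.08 in knockout against 2.27 to 2.62 in wild-type samples, while the 9 markers of ciliated cells and the 8 of club cells were all higher in the knockout. Of the alveolar type 1 markers 9 of 9 were lower, of the type 2 markers 7 of 10, of the neutrophil markers 5 of 10 and of the endothelial markers 5 of 9. Cardiac muscle markers were higher in the knockout in 10 of 10 cases and fat markers in 6 of 6, none of them with separate groups. The cardiac markers were uneven between samples, with list means of 4.39, 4.70 and 4.68 in wild-type replicate 2 and knockout replicates 2 and 4 and between -0.12 and 2.64 in the other 5 samples.

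None of the 33 genes passed the test in either direction (limma, adjusted p under 0.05), against 0.0327% of all genes that rose and 0.0286% that fell. Their main feature was how little most of them differed. The median difference of the 33 was -0.02, against -0.03 for all genes tested. Of the 33, 20 were lower and 13 higher, where 13284 of all 24467 genes were lower and 11183 higher. In size, 27 of the 33 (81.8%) differed by less than 0.2 on the log2 scale, against 54.2% of all genes. The share was 57.1% of the 21991 genes whose probe was above background on all 8 arrays, as the probes used for all 33 were. At an unadjusted p under 0.05, 3 of 33 were lower, against 13.4% of all genes, and 0 of 33 were higher, against 10.2% of all genes. In 4 of 33 every knockout value lay below every wild-type value, against 9.21% of all genes, and in 0 of 33 every knockout value lay above, against 6.1%. Neither count of lower members stands clear of its background. The share of all genes with differences of 0.5 or more was not counted. Of the members, 4 differed by that much: Srebf2, Nr1h3, Abcg1 and Ch25h. Apart from Srebf2 these belong to the LXR and efflux group, where 5 of 5 genes were lower with a median of -0.55; the medians of the other groups were 0.00056 for the first steps, -0.02 from squalene to cholesterol, 0.029 for SREBP2 control and -0.0095 for uptake, transport and storage. Without knockout replicate 4 the LXR median was -0.35. Of these 5, Abca1 turned positive without knockout replicate 3 (0.077) or without wild-type replicate 2 (0.059).

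**Figure D1:**
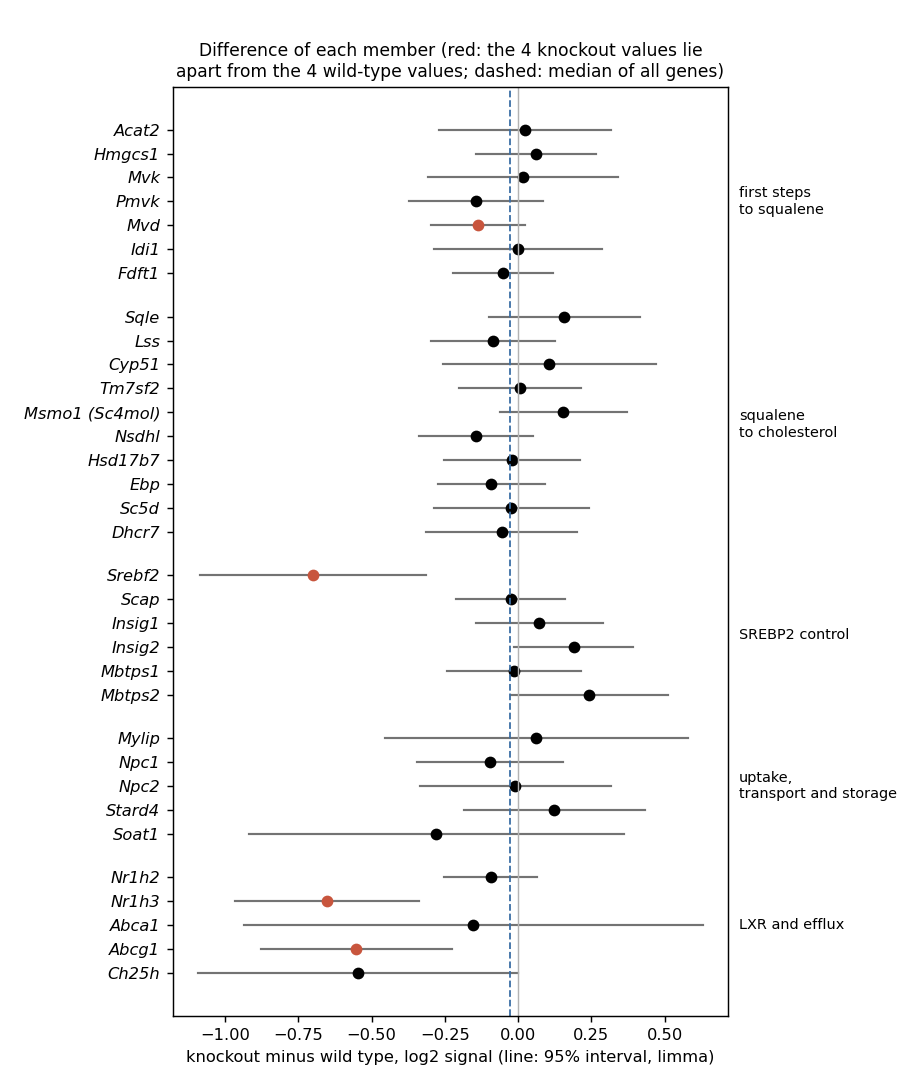
Difference between knockout and wild-type lungs for each of the 33 genes (x axis, log2 signal, knockout minus wild type), grouped by role, with the 95% interval from limma as a line. Red points mark Mvd, Srebf2, Nr1h3 and Abcg1, whose 4 knockout values lie apart from the 4 wild-type values; most others sit within 0.2 of 0, and the dashed line is the median of all genes at -0.03.

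Read with the brightest probe of each gene, the 17 enzymes of synthesis differed by between -0.14 and 0.16. Their 95% intervals together spanned -0.37 to 0.47, so that for none of them did the interval reach a difference of 0.5. The dimmer Nsdhl probe, at 0.63, did exceed it. The intervals of the dimmer Fdft1, Mvk and Tm7sf2 probes also reached 0.5 in size, at differences of 0.37, -0.26 and -0.21. With the brightest probes, none of the 17 passed the test or an unadjusted p under 0.05. Hmgcs1, which makes the HMG-CoA that feeds mevalonate, read 4.20, 4.28, 4.29 and 4.14 in the 4 wild-type lungs and 4.38, 4.09, 4.40 and 4.29 in the 4 knockout lungs. Its groups overlapped, and the difference was 0.062 ± 0.089 (SE). Mvk and Pmvk, the kinases that phosphorylate mevalonate in turn, differed by 0.016 ± 0.14 and -0.14 ± 0.099 (SE). Pmvk read 3.69, 3.74, 3.78 and 3.59 in the 4 wild-type lungs and 3.70, 3.46, 3.37 and 3.69 in the 4 knockout lungs, with knockout replicates 2 and 3 below the wild-type range and 1 and 4 inside it (limma, adjusted p = 0.401). Mvd, the decarboxylase that yields isopentenyl diphosphate (mm9 chr8:124957750-124957809), read 1.62, 1.71, 1.55 and 1.56 in the 4 wild-type lungs and 1.45, 1.47, 1.42 and 1.54 in the 4 knockout lungs. Every knockout value of Mvd lay below every wild-type value, though the nearest, 1.54 and 1.55, almost touched. The difference was -0.14 ± 0.069 (SE; limma, adjusted p = 0.267) and the exact permutation p was 0.0286, the smallest that 4 against 4 samples allow (two-sided).

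Idi1, which isomerises isopentenyl diphosphate, had nearly equal means in both groups (2.83 in wild-type and 2.83 in knockout samples) but ranged from 2.59 in knockout replicate 2 to 3.17 in knockout replicate 1, wider than the wild-type range of 2.74 to 2.89. Fdft1, squalene synthase, which takes farnesyl diphosphate away from Ggps1 into sterols, read 1.57, 1.73, 1.75 and 1.57 in the 4 wild-type lungs and 1.61, 1.57, 1.56 and 1.67 in the 4 knockout lungs. The groups overlapped and the difference was -0.051 ± 0.075 (SE), with a 95% interval of -0.22 to 0.12. The dimmer Fdft1 probe differed by 0.37 ± 0.22 (SE), and the mean of both probes by 0.16. Acat2, the cytosolic acetoacetyl-CoA thiolase at the start of the route, differed by 0.024 ± 0.13 (SE), with knockout values from -0.77 to -0.14 on either side of the wild-type range of -0.49 to -0.42.

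Beyond squalene, the largest positive differences were those of Sqle and Msmo1. Sqle, squalene epoxidase, a rate-limiting step after squalene, read 3.24, 3.16, 3.37 and 3.25 in the 4 wild-type lungs and 3.58, 3.12, 3.44 and 3.51 in the 4 knockout lungs. Knockout replicates 1, 3 and 4 were the highest of all 8 samples and replicate 2 the lowest, and the difference was 0.16 ± 0.11 (SE; limma, adjusted p = 0.414). Msmo1 (Sc4mol on the array), a sterol methyl oxidase, read 3.76, 3.85, 3.68 and 3.78 in the 4 wild-type lungs and 4.08, 3.72, 3.88 and 4.005 in the 4 knockout lungs. Knockout replicate 2 lay within the wild-type range and the other knockout samples above it, with a difference of 0.15 ± 0.094 (SE; limma, adjusted p = 0.346). Nsdhl, which acts with Msmo1 in removing the same methyl groups, read -0.59, -0.47, -0.43 and -0.74 in the 4 wild-type lungs and -0.67, -0.69, -0.72 and -0.72 in the 4 knockout lungs. Its difference was -0.14 ± 0.084 (SE; limma, adjusted p = 0.325), and the knockout values lay within 0.1 of each other, between the lowest and the other wild-type samples. The direction is not settled, since the dimmer probe differed by 0.63 ± 0.18 (SE) with separate groups and the mean of both probes by 0.24. Ebp, a sterol isomerase, read 4.68, 4.60, 4.69 and 4.60 in the 4 wild-type lungs and 4.68, 4.46, 4.62 and 4.45 in the 4 knockout lungs, with a difference of -0.091 ± 0.079 (SE; limma, adjusted p = 0.5) and overlapping groups. The other 6 of this stretch, Lss (lanosterol synthase), Cyp51 (lanosterol demethylase), Tm7sf2 (a sterol reductase), Hsd17b7, Sc5d (lathosterol desaturase) and Dhcr7 (the reductase of the last step), differed by -0.087, 0.11, 0.0073, -0.021, -0.023 and -0.057, with overlapping groups in each.

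Among the knockout samples, many synthesis enzymes were high or low in the same samples. Knockout replicate 1 was the highest of the 4 knockout samples in 12 of the 17 enzymes, where it was highest in 23.1% of all genes, and knockout replicate 2 was the lowest in 9 of the 17, where it was lowest in 25.4% of all genes. The median deviation of the 17 from the mean of their own group was 0.15 in knockout replicate 1 and -0.11 in knockout replicate 2, and between -0.04 and 0.06 in the other 6 samples, against 0.018 and -0.0099 over all genes in those knockout samples. For these 17 genes the median SD over wild-type samples was 0.09 and over knockout samples 0.16, against 0.17 and 0.19 over all genes. The knockout SD was the larger in 10 of the 17, and in 55.6% of all genes. This is a description of these libraries, chosen after the values were seen.

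**Figure D2:**
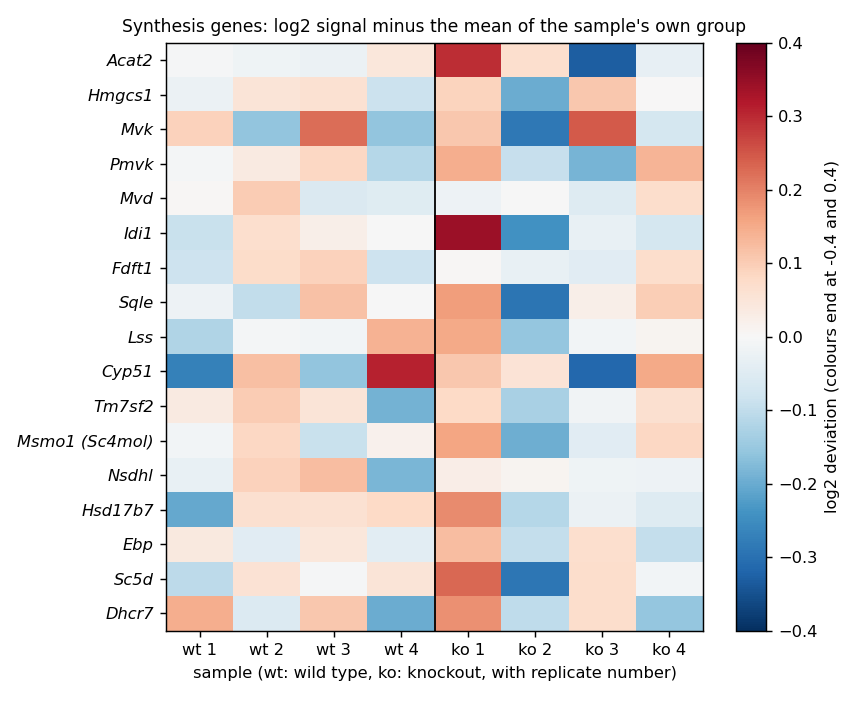
Each of the 17 synthesis enzymes (rows) in each of the 8 samples (columns), as log2 signal minus the mean of the sample's own group, with red above and blue below that mean. The column of knockout replicate 1 is mostly red and that of knockout replicate 2 mostly blue, with median deviations of 0.15 and -0.11.

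Of the genes that control SREBP2, Srebf2 itself had the largest difference, and it rested on 1 of its 2 probes. The brighter probe (mm9 chr15:82030068-82030127) read 0.59, 0.85, 0.46 and 0.26 in the 4 wild-type lungs and -0.15, 0.21, -0.38 and -0.33 in the 4 knockout lungs. All knockout values lay below all wild-type values, the nearest being 0.21 in knockout replicate 2 and 0.26 in wild-type replicate 4. The difference was -0.70 ± 0.17 (SE; limma, adjusted p = 0.0785), a 1.62-fold difference in size, with a 95% interval of -1.09 to -0.31. The other probe, at mm9 chr15:82034765-82034824 and annotated to the same RefSeq transcript, read -0.68, -0.51, -0.58 and -0.69 in the 4 wild-type lungs and -0.51, -0.82, -0.95 and -0.58 in the 4 knockout lungs. It differed by -0.095 ± 0.11 (SE; limma over all probes, adjusted p = 0.637) and its groups overlapped. With the mean of both probes the Srebf2 difference was -0.40 (limma, adjusted p = 0.103). Why the probes differ was not tested.

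The partners of SREBP2 were near level. Insig2, an anchor that retains SCAP in the endoplasmic reticulum, read 2.25, 2.21, 2.26 and 2.43 in the 4 wild-type lungs and 2.45, 2.39, 2.65 and 2.41 in the 4 knockout lungs. Its knockout values were at the upper end of the wild-type range or above it, with a difference of 0.19 ± 0.088 (SE; limma, adjusted p = 0.238), and the other Insig2 probe, annotated to another transcript accession, differed by 0.16 ± 0.13 (SE). Mbtps2, the intramembrane protease that completes the release of SREBP2, read -2.94, -2.69, -3.15 and -2.89 in the 4 wild-type lungs and -2.76, -2.79, -2.50 and -2.65 in the 4 knockout lungs. The difference was 0.24 ± 0.12 (SE; limma, adjusted p = 0.247) for this probe and -0.34 ± 0.29 (SE) for the dimmer one, so the direction is not settled. Insig1, itself an SREBP2 target and the sterol-sensitive counterpart of Insig2, differed by 0.072 ± 0.094, Scap by -0.026 ± 0.081 and Mbtps1, the Golgi protease that makes the opening cleavage, by -0.014 ± 0.098 (SE), all with overlapping groups.

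In the uptake, transport and storage group no gene differed beyond its spread when read with its brightest probe. Soat1, which esterifies cholesterol for storage in droplets, read -1.23, -0.59, -0.23 and -0.93 in the 4 wild-type lungs and -1.41, -0.55, -1.42 and -0.73 in the 4 knockout lungs. Its samples ranged widely in both groups and overlapped, with a difference of -0.28 ± 0.28 (SE; limma, adjusted p = 0.563). Mylip, the LXR-induced ubiquitin ligase that removes lipoprotein receptors from the cell surface, read 1.79, 2.10, 1.74 and 1.82 in the 4 wild-type lungs and 2.16, 2.05, 2.26 and 1.23 in the 4 knockout lungs. Knockout replicate 4 lay far below the other knockout samples, and the difference was 0.062 ± 0.22 (SE) with all samples and 0.29 without knockout replicate 4, where the limma adjusted p was 0.244. Npc1 and Npc2, which pass cholesterol out of lysosomes, differed by -0.096 ± 0.11 and -0.0095 ± 0.14 (SE). Stard4, a cytosolic sterol carrier induced by SREBP2, differed by 0.12 ± 0.13 with its brighter probe and by -0.44 ± 0.16 (SE) with its dimmer one.

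The LXR and efflux genes held 2 of the 3 members past an unadjusted p of 0.05. Nr1h3 encodes LXRα, the receptor form enriched in macrophages and other lipid-handling cells. Its brighter probe (mm9 chr2:91024250-91024309) read 4.39, 4.59, 4.66 and 4.43 in the 4 wild-type lungs and 4.17, 3.96, 3.77 and 3.57 in the 4 knockout lungs. The highest knockout value, 4.17, lay below the lowest wild-type value, 4.39. The difference was -0.65 ± 0.14 (SE; limma, adjusted p = 0.0649), a 1.57-fold difference in size with a 95% interval of -0.97 to -0.34, and the exact permutation p was 0.0286. The other probe, at mm9 chr2:91024345-91024404, read 3.68, 3.76, 3.83 and 3.63 in the 4 wild-type lungs and 3.48, 3.14, 3.05 and 2.76 in the 4 knockout lungs. Both probes gave the same picture, with separate groups and a difference of -0.62 ± 0.15 (SE) for the dimmer one. They are annotated to the same transcript and lie close together, so they read nearly the same stretch of it. Nr1h2, which encodes the widely expressed LXRβ, read 4.69, 4.65, 4.69 and 4.65 in the 4 wild-type lungs and 4.50, 4.51, 4.64 and 4.65 in the 4 knockout lungs. Knockout replicates 3 and 4 were close to the wild-type samples and replicates 1 and 2 below them, and the difference was -0.094 ± 0.068 (SE; limma, adjusted p = 0.426), with a 95% interval of -0.25 to 0.064. Whether the receptors differ in their response was not tested.

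Abcg1, which exports cholesterol to high-density lipoprotein and is induced by LXR (mm9 chr17:31252580-31252639), read 3.16, 3.37, 2.87 and 2.99 in the 4 wild-type lungs and 2.62, 2.76, 2.51 and 2.28 in the 4 knockout lungs. Again the groups were separate, with 2.76 in knockout replicate 2 below 2.87 in wild-type replicate 3. The difference was -0.55 ± 0.14 (SE; limma, adjusted p = 0.0843), a 1.47-fold difference in size, with an exact permutation p of 0.0286. Abca1, the other exporter and the one whose promoter carries the LXR repeat shown above, read 0.97, 1.99, 1.17 and 1.28 in the 4 wild-type lungs and 0.83, 1.81, 0.50 and 1.65 in the 4 knockout lungs. Its groups overlapped, the difference was -0.15 ± 0.34 (SE; limma, adjusted p = 0.812), and the 95% interval of -0.94 to 0.63 includes the Abcg1 difference. Its 3 highest values were in wild-type replicate 2 and knockout replicates 2 and 4, the samples with the highest means of the cardiac muscle, alveolar macrophage and fat markers alike. The alveolar macrophage means were 3.26, 3.14 and 3.13 in these samples and at most 2.82 in the others. That list includes Cidec and Fabp4, which are also made by fat. The part of any of these lists in the Abca1 values was not tested. Ch25h, which makes the LXR-activating 25-hydroxycholesterol and is strongly induced by LPS in macrophages, read 4.47, 5.18, 5.07 and 5.15 in the 4 wild-type lungs and 4.46, 4.77, 4.62 and 3.83 in the 4 knockout lungs. Wild-type replicate 1 and knockout replicate 4 were the low samples of their groups. The difference was -0.55 ± 0.24 (SE; limma, adjusted p = 0.212), and -0.35 without knockout replicate 4.

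**Figure D3:**
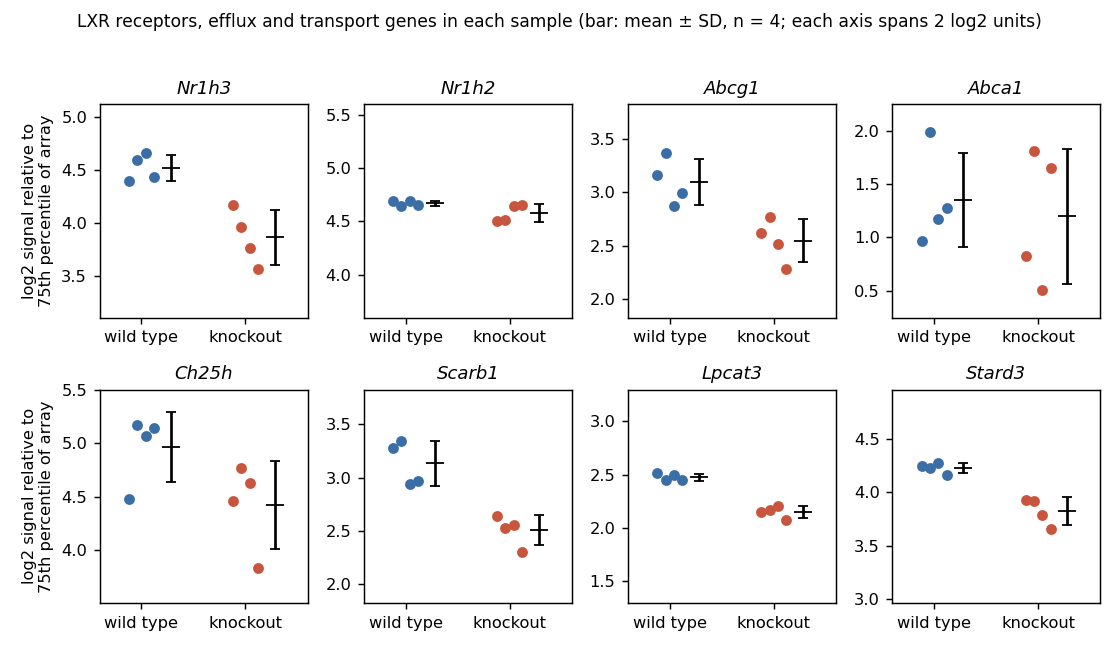
Log2 signal above the array's 75th percentile (y axis, 2 log2 units in every panel) for the 5 LXR and efflux genes and for Scarb1, Lpcat3 and Stard3 in each sample, with the mean and SD of each group (n = 4). The groups are separate for Nr1h3, Abcg1, Scarb1, Lpcat3 and Stard3 and overlap for Nr1h2, Abca1 and Ch25h.

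Monocyte and interstitial macrophage markers moved with Nr1h3 and Abcg1. Their list mean was 2.36, 2.62, 2.37 and 2.27 in the 4 wild-type lungs and 1.51, 2.08, 1.63 and 1.46 in the 4 knockout lungs, so all knockout samples were lower, and of its 12 measured genes 7 had separate groups, against 9.21% of all genes. All 12 were above background on all 8 arrays, and Csf1r, a defining receptor of these cells, differed by -0.76 ± 0.18 (SE; limma, adjusted p = 0.0773). The alveolar macrophage list means overlapped, at 2.35 to 3.26 in wild-type and 2.41 to 3.14 in knockout samples, with 6 genes lower and 6 higher of 12. Its genes were not all level. At an unadjusted limma p under 0.05, 3 were lower and 1 higher, and groups were separate for 2 lower genes and 1 higher gene. Ear1 differed by -1.12 ± 0.18, Ear2 by -0.997 ± 0.18 and Chi3l3 by -0.56 ± 0.18 (SE). Plet1 (1600029D21Rik on the array), the higher gene at that p, differed by 0.68 ± 0.17 (SE). None of the 12 passed the test. The largest positive differences were those of Cidec (2.29 ± 1.13) and Fabp4 (1.44 ± 0.85, SE). Both are also made by fat, whose list means overlapped between the groups (-4.69 to 0.08 in wild-type and -4.23 to 1.87 in knockout samples). Within the groups the order of samples differed: knockout replicate 4 was lowest for Nr1h3, Abcg1 and the monocyte list (1.46), but knockout replicate 1, with a list mean of 1.51, had the highest Nr1h3 of the knockout samples (4.17). Wild-type Nr1h3 was highest in replicate 3, while the list was highest in replicate 2. The part of these cells in the Nr1h3 and Abcg1 differences was not tested.

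**Figure D4:**
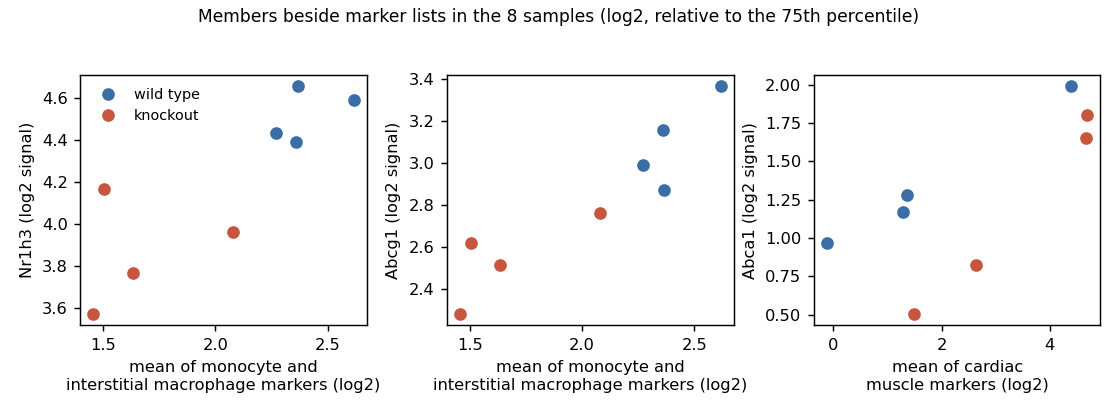
Nr1h3 and Abcg1 (y axes, log2 signal) against the mean of the monocyte and interstitial macrophage markers, and Abca1 against the mean of the cardiac muscle markers, with 1 point per sample. In the left and middle panels knockout samples (marker means of 1.46 to 2.08) are separate from wild-type samples (2.27 to 2.62) on both axes. In the right panel the 3 samples with marker means at 4.39 or more are those with the highest Abca1. The same 3 samples also have the highest alveolar macrophage and fat marker means. The alveolar macrophage list includes Cidec and Fabp4, which are also made by fat.

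Other genes of the pathway, taken from 3 lists, were read beside these. None passed the test. Of 13 further genes of synthesis and sterol sensing, 8 were lower and 5 higher (median -0.083), and an unadjusted p under 0.05 was reached by 2 lower and 1 higher, where 13.4% of all genes were lower and 10.2% higher by that rule. Erlin1, a protein of the complex that degrades sterol-regulated enzymes, read 2.74, 2.76, 2.87 and 2.87 in the 4 wild-type lungs and 2.64, 2.64, 2.48 and 2.35 in the 4 knockout lungs and differed by -0.28 ± 0.089 (SE; limma, adjusted p = 0.121), with separate groups. Acat1, the mitochondrial thiolase, differed by 0.26 ± 0.11, and Srebf1, the SREBP of fatty acid synthesis and an LXR target, by -0.33 ± 0.13 (SE), both with overlapping groups.

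Of 18 further genes of uptake, transport and storage, 14 were lower and 4 higher (median -0.21), of which 4 lower and 3 higher ones had an unadjusted p under 0.05 (13.4% and 10.2% of all genes). In 3 of the 18 every knockout value lay below every wild-type value, and in 2 every knockout value lay above, against 9.21% and 6.1% of all genes. Scarb1, the receptor that takes up cholesterol from high-density lipoprotein, read 3.28, 3.35, 2.94 and 2.97 in the 4 wild-type lungs and 2.64, 2.53, 2.56 and 2.30 in the 4 knockout lungs. Every knockout value was at 2.64 or below and every wild-type value at 2.94 or above, and the difference was -0.63 ± 0.12 (SE; limma, adjusted p = 0.0628). Stard3, which moves cholesterol at late endosomes, read 4.24, 4.23, 4.27 and 4.16 in the 4 wild-type lungs and 3.93, 3.92, 3.79 and 3.65 in the 4 knockout lungs, again with separate groups and a difference of -0.40 ± 0.083 (SE; limma, adjusted p = 0.0636). Vldlr, a receptor for triglyceride-rich lipoproteins, ran the other way. With the brightest probes it had the largest difference of the 9 genes named from these lists. With the mean of its probes the Vldlr difference was 0.68 (limma, adjusted p = 0.169). Its brightest probe read 0.87, 0.51, 1.08 and 1.30 in the 4 wild-type lungs and 2.29, 1.09, 2.14 and 2.25 in the 4 knockout lungs. The 3 higher knockout samples lay at 2.14 or above and knockout replicate 2 lay inside the wild-type range, and the difference was 1.003 ± 0.29 (SE; limma, adjusted p = 0.106).

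Of 10 measured LXR partners, efflux and oxysterol genes, 6 were lower and 4 higher (median -0.029), of which 3 lower and 0 higher ones had an unadjusted p under 0.05 (13.4% and 10.2% of all genes). Lpcat3, a phospholipid-remodelling enzyme and LXR target, had the smallest SE of the genes named from these lists. It read 2.51, 2.45, 2.49 and 2.45 in the 4 wild-type lungs and 2.15, 2.17, 2.20 and 2.08 in the 4 knockout lungs. The gap between the groups was wider than the spread within either, and the difference was -0.33 ± 0.064 (SE; limma, adjusted p = 0.0628). Scd2, a fatty acid desaturase, differed by -0.56 ± 0.2 (SE) with overlapping groups. Cyp27a1, the mitochondrial sterol 27-hydroxylase, read -4.37, -4.54, -4.34 and -5.08 in the 4 wild-type lungs and -6.12, -4.97, -5.03 and -6.08 in the 4 knockout lungs; it was well above background on 4 of 4 wild-type but 2 of 4 knockout arrays, and its difference of -0.97 ± 0.32 (SE) shrank to -0.10 with normexp background correction, where its unadjusted limma p was 0.235.

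Of the 33 genes, 13 had more than 1 probe and in 7 of these the probes differed in sign: Fdft1, Mbtps1, Mbtps2, Mvk, Nsdhl, Stard4 and Tm7sf2. The widest disagreement was that of Nsdhl. Its dimmer probe read -2.94, -2.87, -3.24 and -3.02 in the 4 wild-type lungs and -1.995, -2.78, -2.16 and -2.62 in the 4 knockout lungs, with every knockout value above every wild-type value and a difference of 0.63 ± 0.18 (SE; limma over all probes, adjusted p = 0.107), against -0.14 ± 0.084 (SE) for its brighter probe. The dimmer Stard4 probe went the opposite way, at -0.44 ± 0.16 (SE). By contrast, both probes of Nr1h3, Pmvk and Insig2 differed in the same direction and by similar amounts. The Nr1h3 probes lie close together on 1 transcript, as do those of Pmvk, which limits what their match shows. No gene other than Nr1h3 had separate groups with each of its probes where it had more than 1. With normexp background correction several dimmer probes differed by less: 0.22 for Fdft1, -0.094 for Tm7sf2, -0.18 for Stard4, -0.061 for Mbtps2 and 0.46 for Nsdhl. The dimmer Mvk and Mbtps1 probes did not shrink, at -0.27 and 0.13. The dimmer Mbtps2 probe was above background on 6 of 8 arrays.

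**Figure D5:**
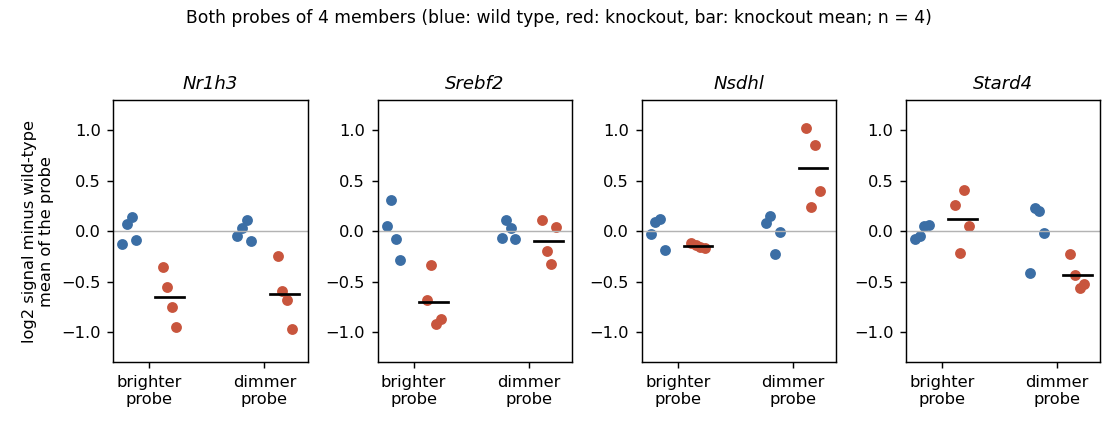
Log2 signal minus the wild-type mean of the same probe (y axis) for the brighter and the dimmer probe of Nr1h3, Srebf2, Nsdhl and Stard4, with 4 wild-type (blue) and 4 knockout (red) samples and the knockout mean as a bar. Both Nr1h3 probes sit at -0.65 and -0.62, while Srebf2 sits at -0.70 and -0.095 and the probes of Nsdhl and Stard4 lie on opposite sides of 0.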

How the data were processed

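Whole-lung RNA of 8 samples (4 per group) was hybridised to single-colour (Cy3) Agilent arrays. The scans were read by the authors with Agilent Feature Extraction 10.7.1.1, per the file headers, with probe coordinates on mm9. The deposited scanner files hold intensity values, including Agilent's processed signal, background-subtracted and spatially detrended within each array. The authors' deposited table is on a log2 scale, with a median of 5.63 in each column; its correlation with log2 processed signal was at least 0.999, and its normalization is not named in the sources used here.

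From these, control spots and outlier spots (154 to 245 per array) were left out, spots of 1 probe were averaged, and log2 signal was set relative to the array's 75th percentile over 55681 probes. None was saturated. A probe was tested when well above background on 3 or more of 4 arrays of a group, and the brightest probe stood for its gene name, which left 24467 of 36163. limma 3.58.1 (R 4.3.3) compared the groups (two-sided, Benjamini-Hochberg over all genes). Exact permutation tests used all 70 divisions of the 8 samples. The fit was tested on simulated data. The number of arrays limits the precision.

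The members and lists were chosen with earlier results of these data known. Full values are given for the 14 members with the smallest p and any with separate groups, and up to 3 genes are named per other list; Hmgcs1, Fdft1, Mylip and Abca1 were added after their values were seen. Symbols were updated through RefSeq accessions of GRCm38.p6, which also gave the promoters. Alternatives were normexp (offset 50), quantile normalization, median centring, the deposited table, no filter, a filter on all 8 arrays, the mean of a gene's probes, single probes, the replicate number as a block, an intensity trend in the variance and leaving out each sample. Figures were drawn with matplotlib 3.10.9.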

Additional observations from a re-analysis of the deposited data

Results flagged for a closer look

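In 4 of 116 groups of 4 values tested, 1 sample lay far from the others by Dixon's criterion, where chance gives about 1 in 20. Wild-type replicate 1 was low for Ch25h (4.47, the others 5.07 to 5.18) and for Hsd17b7 (-0.28, the others -0.019 to 0.00048). Knockout replicate 2 was low for Vldlr (1.09, the others 2.14 to 2.29). The neutrophil marker mean was high in wild-type replicate 2 (4.74, the others 4.44 to 4.48).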

How the results depend on the processing

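No member passed an adjusted p of 0.05 in 15 of the 17 settings other than single probes; with the intensity trend Nr1h3 passed (1 lower; limma, adjusted p = 0.0491), and without a filter Nr1h3 and Srebf2 did (2 lower; limma, adjusted p = 0.0466 for each). Over all settings the adjusted p ranged from 0.0466 to 0.159 for Nr1h3, 0.0466 to 0.169 for Srebf2 and 0.0558 to 0.179 for Abcg1, and none of these 3 changed sign. The Nr1h3 difference ran from -0.75 to -0.55 and that of Srebf2 from -0.82 to -0.40. Among all genes, the calls (8 rose, 7 fell) went to 59 and 67 with the filter on all 8 arrays, 160 and 257 with the intensity trend, 2732 and 785 with no filter and 228 and 284 with normexp. The mean of a gene's probes gave 4 that rose, median centring gave 11 that fell, and the replicate number as a block gave 34 that fell. Leaving out 1 sample gave 1 to 11 that rose and 0 to 12 that fell, with 0 that fell without knockout replicate 1 or 2 or wild-type replicate 1 or 2; the cause was not tested. Abca1 ranged from -0.36 to 0.077 when a sample was left out. At an unadjusted p under 0.05, 2 members were higher with the deposited table and with quantile normalization (Msmo1 and Insig2), 1 with the intensity trend (Insig2), 1 with normexp (Mbtps2) and 0 to 2 when a sample was left out; median centring gave 5 lower, adding Mvd and Ch25h, and 4 were lower, adding Ch25h, with the filter on all 8 arrays, the intensity trend, the mean of a gene's probes and normexp, and without knockout replicate 2 or wild-type replicate 1. Without wild-type replicate 4 there were also 4, adding Nsdhl. Median centring moved the median of all genes to -0.08. Ggps1 differed by 0.0054 with the mean of its probes. Same-numbered samples shared a slide column, though the labels name no pairing. They did not deviate together in every pair (r from -0.29 to 0.47). With the replicate number as a block, 0 members passed. A slide block was not run, since there was 1 slide. Dim probes are the least settled.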
